A study of Mus musculus with 3 samples.

Results

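The miR-130 and miR-301 family is a group of miRNAs, small regulators that silence messenger RNAs by base pairing, whose 3p strands share 1 seed, the stretch that selects targets. Its members here are all rows of the deposited table that carry the 3p or 5p strand of miR-130a, miR-130b, miR-301a or miR-301b, chosen by name and not by value. There are 8 such rows among 1251. The table covers 3 samples of visceral (epididymal) fat of C57BL/6J mice, numbered 1, 3 and 9 in the sample titles. The mice were put on a high-fat diet supplemented with EPA (eicosapentaenoic acid, a marine omega-3 fat) at an age of 5 to 6 weeks and kept on it for 11 weeks, then fasted for 4 h. The energy of the diet was 45% fat, 20% protein and 35% carbohydrate, and EPA is given as 6.75%. All 3 samples form 1 group and no other diet was analysed here, so the effect of EPA on the family cannot be read from these values. Only the titles and a note on group size mark the samples as separate animals, and the p-values reflect sample-to-sample variation alone, part or all of which could be technical.

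PPARγ, the product of Pparg, is the nuclear receptor that drives fat cell formation and keeps fat cells storing lipid. miR-130 family strands can pair with Pparg messenger RNA and lower its product, and miR-130a and miR-130b were described as brakes on fat cell formation in human preadipocytes. miR-130a is also known from endothelial cells, where it promotes vessel growth, and miR-130b is known as a miRNA that fat cells can release. Pparg messenger RNA was not measured in these samples.

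The strands that carry the family seed are printed first, because every level below is a level of this targeting sequence or of its partner strand. Mature sequences come from RefSeq on GRCm38.p6, where 7 of the 8 members matched, and the capitals mark bases 2 to 8, counted from the 5′ end.
miR-130a-3p: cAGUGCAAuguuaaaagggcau
miR-130b-3p: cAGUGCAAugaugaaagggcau
miR-301a-3p: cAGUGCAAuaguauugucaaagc
miR-130a-5p: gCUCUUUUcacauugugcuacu
miR-130b-5p: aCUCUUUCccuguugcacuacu
miR-301a-5p: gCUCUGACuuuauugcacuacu

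miR-130a-3p and miR-130b-3p were equal at 20 of 22 bases, and miR-130b-3p departed from miR-130a-3p by U11A and A13G, outside the seed. miR-301a-3p kept the first 9 bases of miR-130a-3p and matched it at 3 of the 13 bases after them that were compared. The seed AGUGCAA stood in 7 of the 1738 mature sequences searched. These were the 3 strands above and miR-130c, miR-721, miR-6341 and miR-6389, each of which has a row in the table. No sequence of miR-301b-3p was among those searched, so its seed was not checked here. The partner strands held 3 different seeds, with CUCUGAC shared by miR-301a-5p and miR-301b-5p.

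The same seed has a match in Pparg itself. In the 204 bases that follow the Pparg stop codon in GENCODE M21 on GRCm38, the complement of the seed, TTGCACT, occurred 1 time, starting at base 42 after the stop codon, and it was there in all 3 annotated coding transcripts with a 3′ untranslated region. That region also held 1 complement of the seed of miR-27a-3p and miR-27b-3p, ACTGTGA, starting at base 88. The 2 sites are shown with 8 bases on either side, capitals marking the match.
Site for miR-130 and miR-301, chr6:115490229-115490251, plus strand: tctattgaTTGCACTattatttt
Site for miR-27, chr6:115490275-115490297, plus strand: agaaatttACTGTGAaaaagcat

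Both matches are followed by an A, the base that commonly flanks miRNA seed sites. The reverse complements of these motifs, AGTGCAA and TCACAGT, did not occur in this region. Among 18024 mouse genes with at least 204 bases after the stop codon, 1.62% held TTGCACT in the first 204 bases and 2.95% held ACTGTGA. Over whole 3′ untranslated regions of 21020 genes the shares were 9.99% and 16.0%. A match describes letters only, and whether the site was bound in this fat was not tested.

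The family was represented almost wholly by miR-130a-3p. Values are the deposited log2 normalized values, whose floor is 3.32, and linear values are counts above that floor. Seen means above the floor. miR-130a-3p stood at 11.88 in mouse 1, 12.07 in mouse 3 and 12.12 in mouse 9, a mean of 12.02 ± 0.13 (SD, n = 3). The 3 samples lay within 0.24 log2 units of each other, with mouse 1 lowest. On the linear scale these were 3757, 4286 and 4440 normalized counts, which placed it at rank 55, 52 and 51 of all rows in mice 1, 3 and 9.

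miR-130b-3p, a near copy with the same seed, was seen in every mouse at a low level. It stood at 5.53 in mouse 1, 5.30 in mouse 3 and 5.76 in mouse 9, a mean of 5.53 ± 0.23 log2 units (SD, n = 3). That is 36.3, 29.3 and 44.0 linear counts, at ranks 232, 237 and 222. miR-301a-3p, the next strand, is known from human cancer cells as an activator of NF-κB signalling. It stood at 4.57 in mouse 1, 4.87 in mouse 3 and 4.68 in mouse 9, a mean of 4.71 ± 0.15. Its linear counts were 13.8, 19.3 and 15.6, with mouse 3 highest where miR-130b-3p was lowest.

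miR-130b-5p, the partner strand of miR-130b-3p, was above the floor in mouse 1 at 4.31 and in mouse 9 at 3.62, and at the floor in mouse 3. The other 4 members, miR-130a-5p, miR-301a-5p, miR-301b-3p and miR-301b-5p, stood at the floor in all 3 mice. They were not detectable in these libraries, whose depth is unknown, which does not show that they are absent. Of the 8 members, then, 3 were seen in all mice, 1 in 2 mice and 4 in none. Among all 1251 rows, 287 (22.9%) were seen in all mice.

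**Figure D1:**
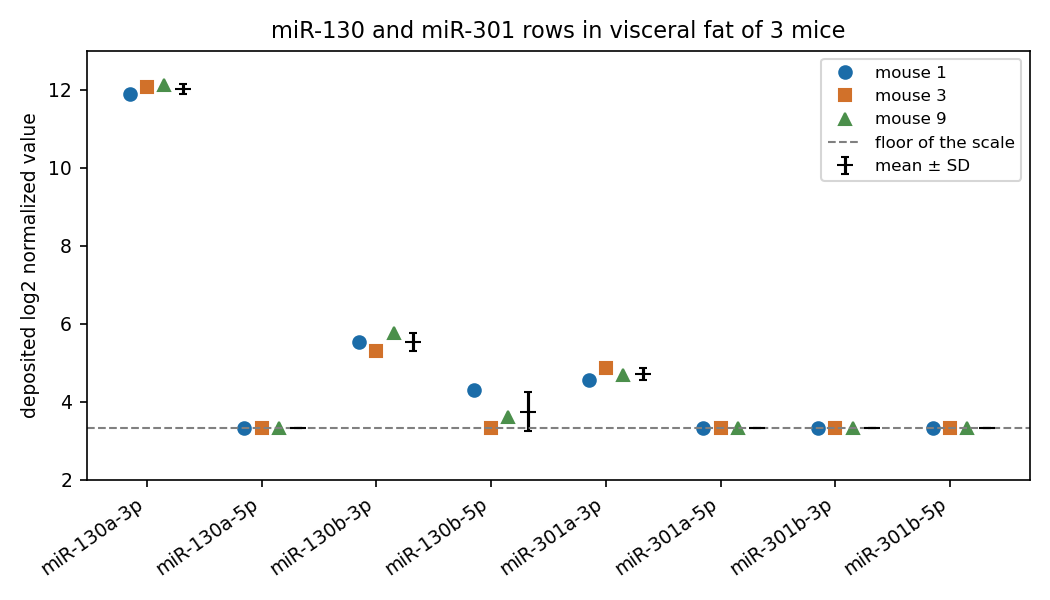
Deposited log2 normalized values (vertical axis) of the 8 miR-130 and miR-301 rows, with 1 symbol per mouse and the mean ± SD (n = 3) beside each row; the dashed line is the floor of the scale at 3.32. miR-130a-3p lies between 11.88 and 12.12, miR-130b-3p and miR-301a-3p lie between 4.57 and 5.76, and 4 rows lie on the floor.

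The order of the seen strands held in every mouse. miR-130b-3p was below miR-130a-3p by a mean difference of -6.49 ± 0.24 log2 units (SD, n = 3; lower in 3 of 3 mice), and miR-130a-3p held 117 ± 25.5 linear counts for each count of miR-130b-3p. miR-301a-3p was below miR-130b-3p by -0.82 ± 0.35, with differences of -0.96, -0.42 and -1.08 in mice 1, 3 and 9. miR-130b-5p was below miR-301a-3p by -0.96 ± 0.65, and in mouse 1 the gap was -0.26. The last 2 steps lie near the floor, where the log2 scale is compressed. These differences are between strands of different sequence within a library, and unequal capture of sequences was not tested. No test was made on the levels.

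The 8 rows summed to 0.159% of the linear total in mouse 1, 0.180% in mouse 3 and 0.187% in mouse 9, or 0.175% ± 0.0148 (SD, n = 3). miR-130a-3p made up 98.6% ± 0.225 of that sum. The 4 further rows with the same seed, miR-130c, miR-721, miR-6341 and miR-6389, were at the floor in every mouse, so miR-130a-3p also supplied nearly all of the AGUGCAA seed that was seen. Fewer cells of a type and less of a miRNA per cell cannot be told apart in such bulk tissue.

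Against all rows seen in all mice, miR-130a-3p was among the steadier ones. Its SD of 0.13 log2 units was undercut by 48 of these 287 rows, against 69 for miR-301a-3p and 116 for miR-130b-3p, and the median SD was 0.27. The median level of these rows, 8.02, was well below that of miR-130a-3p, so it need not be steady for its level. Near its level, miR-27a-3p had an SD of 0.06 and miR-451a 0.35. The log2 SDs of miR-301a-3p and miR-130b-3p are compressed near the floor. In linear counts the levels were 4161 ± 358 for miR-130a-3p, 16.2 ± 2.79 for miR-301a-3p and 36.5 ± 7.38 for miR-130b-3p (SD, n = 3). Because the 3 columns are made of almost the same values, mice can differ little except in the rank of a row. miR-130a-3p was lowest in mouse 1, and the marker sums of other cell types followed no single order over the mice. In mouse 1 the striated muscle and endothelial sums were lowest and the erythroid sum highest. The leukocyte and epithelial sums of mouse 1 lay between those of the other mice. The 4 striated muscle miRNAs, of which 2 were seen in all mice, summed to 3912, 85898 and 67069 linear counts in mice 1, 3 and 9. Nearly all of that was miR-133a-3p, at 3908, 85150 and 66274. miR-133b-3p was likewise lowest in mouse 1, at 4.18, against 708 and 794 in mice 3 and 9. miR-206-3p and miR-1a-3p were at or near the floor, the highest value being 36.3 for miR-1a-3p in mouse 3. All 3 endothelial miRNAs were seen and summed to 16559, 23017 and 18012. The 3 erythroid miRNAs, 2 of them seen in all mice, were highest in mouse 1 at 6862, against 4744 and 4299 in mice 3 and 9, chiefly through miR-451a.

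Of 5 leukocyte miRNAs 3 were seen in all mice, with sums of 8832, 8511 and 9154 in mice 1, 3 and 9, and miR-155-5p was at the floor. Most of each sum was miR-150-5p, at 7169.9, 6808.5 and 7596.5. The others differed in order: miR-223-3p was highest in mouse 1 (858, 531.5 and 724) and miR-142-5p lowest there (794, 1170.5 and 830). The 5 epithelial miRNAs, 2 of them seen in all mice, summed to 586, 645 and 16.4. Of these, miR-200a-3p and miR-200b-3p were highest in mouse 1, and miR-200c-3p, miR-141-3p and miR-429-3p in mouse 3. The hepatocyte miR-122-5p was at the floor in all mice. The part of these cell types in the small spread of miR-130a-3p was not tested.

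miR-27a-3p and miR-27b-3p, the other miRNAs well known to repress Pparg in fat cells, both stood above miR-130a-3p in 3 of 3 mice. miR-27a-3p averaged 12.43 ± 0.06 and miR-27b-3p 15.07 ± 0.08 log2 units (SD, n = 3). miR-130a-3p differed from miR-27a-3p by -0.41 ± 0.10 log2 units and from miR-27b-3p by -3.05 ± 0.13. The gap to miR-27a-3p was -0.52, -0.33 and -0.39 in mice 1, 3 and 9, so it was larger than the spread between the mice.

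Strands that share part of the seed were also measured, and the shared letters are in capitals below.
miR-148a-3p: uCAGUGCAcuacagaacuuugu
miR-148b-3p: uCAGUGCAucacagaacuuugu
miR-152-3p: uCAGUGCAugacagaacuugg
miR-19b-3p: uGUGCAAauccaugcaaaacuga

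Bases 2 to 8 of miR-148a-3p, miR-148b-3p and miR-152-3p equal bases 1 to 7 of miR-130a-3p, and bases 2 to 7 of miR-19a-3p and miR-19b-3p equal its bases 3 to 8. miR-148a-3p, a promoter of fat cell formation, averaged 14.32 ± 0.08 log2 units, and miR-130a-3p differed from it by -2.30 ± 0.21 (lower in 3 of 3 mice). miR-130a-3p stood above miR-148b-3p (8.79 ± 0.37) and miR-152-3p (7.88 ± 0.31) in 3 of 3 mice. In sum the miR-130 and miR-301 rows held 0.175% ± 0.0148 of the linear total and the miR-148 and miR-152 strands 0.878% ± 0.0555, a ratio of 0.201 ± 0.0289. Against the miR-27 strands, at 1.66% ± 0.0764, the ratio was 0.106 ± 0.00855. miR-19a-3p was at the floor, and miR-19b-3p held 9.83, 5.05 and 26.8 linear counts in mice 1, 3 and 9.

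**Figure D2:**
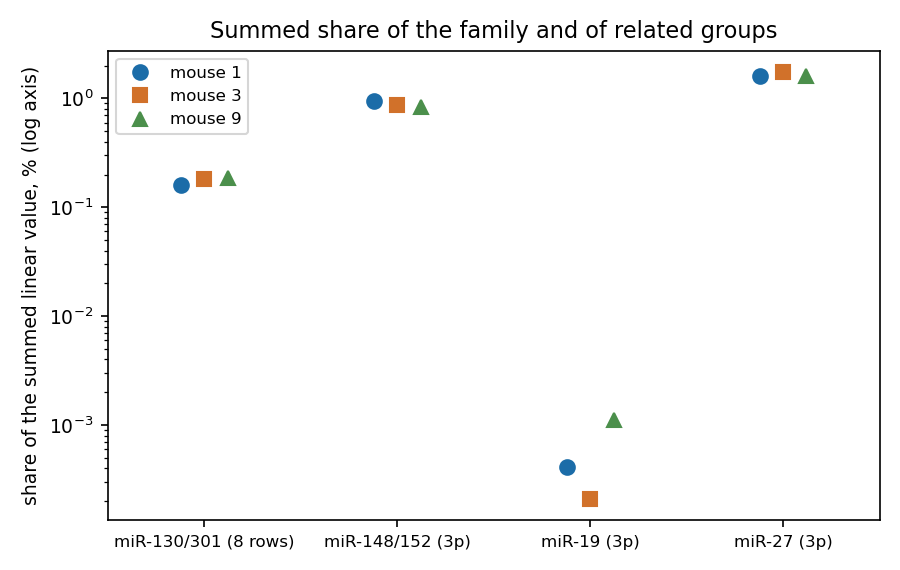
Share of the summed linear value in percent (vertical log axis) for the 8 miR-130 and miR-301 rows, the miR-148 and miR-152 3p strands, the miR-19 3p strands and the miR-27 3p strands, with 1 symbol per mouse. In each mouse the family, at 0.159% to 0.187%, lies below the miR-148 and miR-152 group and the miR-27 group and above the miR-19 group.

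The 8 adipogenesis-promoting miRNAs set beside the family were all seen in every mouse, and 6 of them stood above miR-130a-3p in every mouse. They were miR-30a-5p (16.18 in each mouse), miR-30d-5p (15.62 ± 0.13), miR-143-3p (17.10 ± 0.17), miR-148a-3p (above), miR-378a-3p (16.07 ± 0.63) and miR-103-3p (13.81 ± 0.33). miR-107-3p, a near copy of miR-103-3p linked to insulin sensitivity, lay below miR-130a-3p at 9.68 ± 0.48, and the hypoxia-induced miR-210-3p at 8.02 ± 0.14. No miRNA is particular to fat cells, and the high levels of miR-143-3p, miR-103-3p and miR-378a-3p are those of miRNAs abundant in fat.

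**Figure D3:**
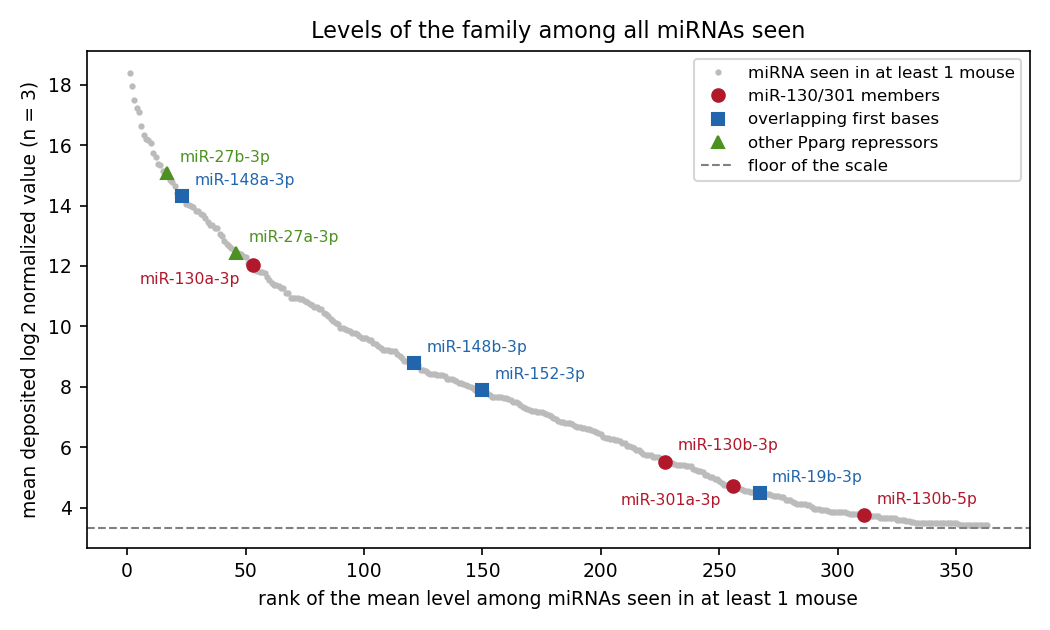
Mean deposited log2 normalized value (vertical axis, n = 3) of every miRNA seen in at least 1 mouse, against its rank (horizontal axis); coloured symbols mark family members, strands with overlapping first bases and the miR-27 strands, and the dashed line is the floor. miR-130a-3p lies at 12.02, below miR-27a-3p at 12.43, and the other seen members lie between 3.75 and 5.53.

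Both strands of a hairpin can be loaded. For miR-130a and miR-301a the 3p strand was seen in all 3 mice and the 5p strand in none. For miR-130b the 3p strand was seen in all mice and the 5p strand in 2, and for miR-301b neither strand was seen. The 5p strand of miR-130a is listed at 0 linear counts in all 3 mice, so only a 3p lead was possible and no p is given for it. The fitted log2 value of 5p to 3p, -8.70, is the distance of the 3p strand from the floor: it was -12.02 with 1 and -6.71 with 40 in place of the constant of 10. miR-130a was the only hairpin of the family with a strand that averaged at least 100 linear counts. Among the 129 hairpins with such a strand, 60 (46.5%) had the 3p strand higher and 66 the 5p strand. The calls are by limma's moderated test of the log2 ratio against 0, two-sided, with Benjamini-Hochberg adjustment. In 23 of the 60 with the 3p strand higher, the 5p strand was at the floor throughout, as for miR-130a.

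miR-130b and miR-301a entered only when every hairpin with a value above the floor was tested, 202 in all. Of these, 78 (38.6%) had the 3p strand higher and 79 the 5p strand, so most tested hairpins were called in 1 direction or the other. In 34 of the 78 with the 3p strand higher, the 5p strand was at the floor throughout, so only a 3p lead was possible there. miR-130b-5p stood at 4.31, 3.32 and 3.62 in mice 1, 3 and 9 and miR-130b-3p at 5.53, 5.30 and 5.76. The 3p strand was thus higher in each mouse. The log2 ratio of 5p to 3p was -1.78 (moderated SE 0.27; 5p higher in 0 of 3 mice) with an adjusted p of 0.00454 by limma. With so few counts its size depends on the constant, and it was -3.50 with 1 and -0.80 with 40. Without mouse 3 the ratio was -1.68 with an adjusted p of 0.0554, so the call was lost, and the adjusted p ran from 0.0034 to 0.0554 over the alternatives. miR-301a-5p is listed at 0 linear counts in every mouse, so no p is given for this hairpin either. Its fitted log2 value of 5p to 3p, -1.39, is again a distance from the floor and was -4.09 with a constant of 1 and -0.49 with 40.

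**Figure D4:**
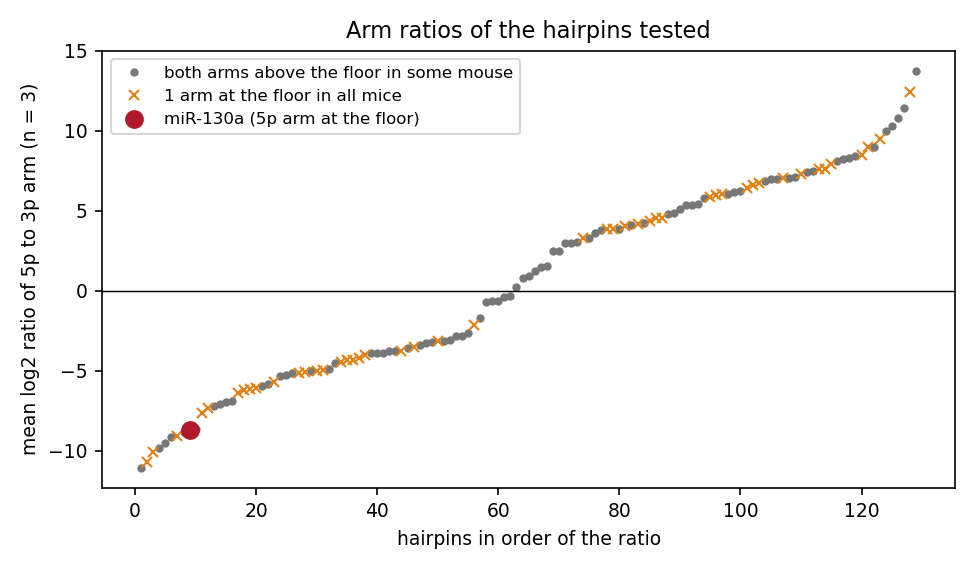
Mean log2 ratio of the 5p to the 3p strand (vertical axis, n = 3) for the 129 hairpins tested, in order of the ratio; crosses are hairpins with 1 strand at the floor in all mice, whose values are distances from the floor. miR-130a, in red, lies at -8.70 and has its 5p strand at the floor.

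The hairpins come from 3 places in the genome, given on GRCm38, the assembly of mm10, with annotation from GENCODE M21. Mir130a lies on chromosome 2 from 84741115 to 84741178 on the minus strand, outside any other gene annotated on that strand. Mir301, the source of miR-301a, lies on chromosome 11 from 87113004 to 87113089 on the plus strand, in an intron of Ska2, whose product serves chromosome segregation. Mir130b (17124061 to 17124142) and Mir301b (17124400 to 17124496) lie on chromosome 16 on the minus strand, 257 bases apart, in an intron of 2610318N02Rik. The seen strand with the highest level comes from the hairpin with no host gene on its strand, and the lower ones from introns. Whether level goes with a host gene was not tested.

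The 2 neighbours on chromosome 16 differed. miR-130b-3p was seen in every mouse, and both strands of miR-301b stood at the floor in every mouse. Such a difference was found for other neighbours too. Of 49 pairs of hairpins on the same strand within 1000 bases of each other, with at least 1 hairpin seen in all mice, 14 had the partner at the floor in all mice, Mir130b and Mir301b among them, and 21 had both seen in all mice. Pairs share hairpins and are not independent: 10 of the 14 lie in a single stretch of chromosome 12, as do 6 of the 21. The 3p strands of miR-301a and miR-301b are near copies, and how the authors' counting divided reads between such copies is not given in the sources used here, so the split between them is uncertain.

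**Figure D5:**
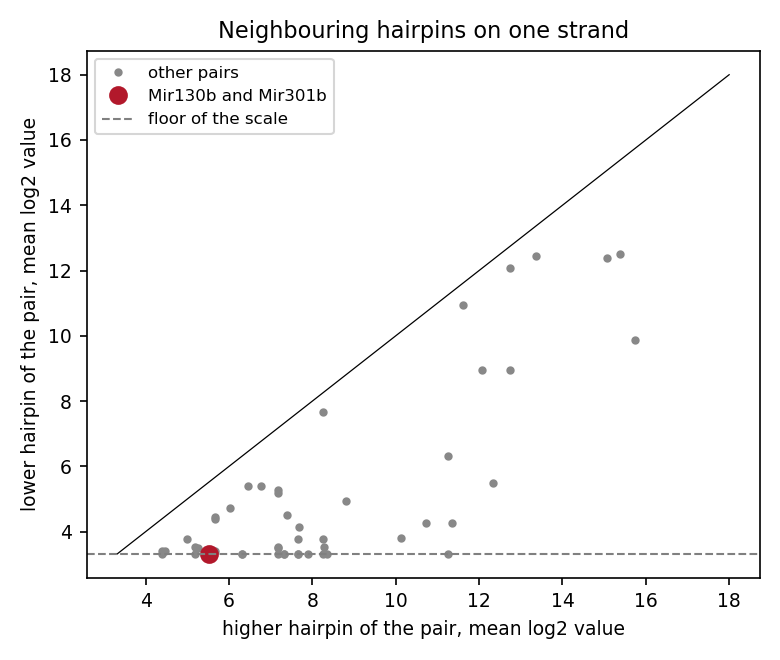
Mean log2 value of the lower hairpin (vertical axis) against the higher hairpin (horizontal axis) of 49 pairs of hairpins within 1000 bases on the same strand, each hairpin represented by its higher strand (n = 3); the dashed line is the floor and the diagonal marks equal levels. Mir130b with Mir301b, in red, lies at 5.53 for Mir130b and at the floor of 3.32 for Mir301b.

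Over the 3 mice each seen member had other miRNAs with nearly the same pattern, measured as the Euclidean distance between log2 values centred on their own mean, over 286 other rows seen in all mice. The nearest to miR-130a-3p were miR-29c-3p (9.03, 9.23 and 9.31 in mice 1, 3 and 9; distance 0.028), miR-1843a-5p (0.033) and miR-99a-5p (0.037). The nearest to miR-130b-3p were miR-676-3p (11.10, 10.87 and 11.34; distance 0.012), miR-151-5p (0.037) and miR-152-5p (0.070). The nearest to miR-301a-3p were miR-17-5p (7.04, 7.37 and 7.15; distance 0.019), miR-486-3p (0.036) and miR-15a-5p (0.040). No member was among the 3 nearest of another. With 3 mice such likeness is easily met: 10, 7 and 9 rows lay within a distance of 0.1 of miR-130a-3p, miR-130b-3p and miR-301a-3p. The log2 values of miR-130b-3p and miR-301a-3p are compressed near the floor, so their distances and nearest rows depend on the constant. No other constant was tried for the distances.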

How the data were processed

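Mature miRNAs were measured by small RNA sequencing of total RNA from snap-frozen fat. The deposited table holds log2 values, 1 per miRNA and sample. Per the labels' series design text, the authors ran the Gunaratne pipeline against mm10 (also named per the submitters' processing notes), normalized counts to usable reads and added a constant of 40. The lowest deposited value, 3.32, is log2 of 10, and 260 values lie between 10 and 40, so 10 was taken as the constant. Sorted columns share the same value at 36.0% of 336 ranks (within 1e-06), a trace of rank-based scaling that no source used here states. No read depth can be read back from such values, and intervals for counting error are therefore left out. The aligner is not given in the sources used here.

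Linear values are 2 to the power of the log2 value, minus 10. Arm ratios were fitted with limma 3.58.1 in R 4.3.3, with a prior trend on level, on hairpins whose larger strand averaged at least 100, with Benjamini-Hochberg adjustment and a threshold of 0.05. Sequences and positions came from RefSeq and GENCODE M21 tables, read with Python 3.11.15. Hairpins whose mature strand comes from several loci were left out of the neighbour count. Alternatives were other constants (1 or 40), filters (none, or 1000), scaling, priors and detection limits, and leaving out each mouse.

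Named miRNAs were all members, strands with the same or an overlapping seed, 2 other Pparg repressors, 8 adipogenesis-promoting miRNAs, cell type markers and the 3 nearest patterns per member. Members and lists were chosen with earlier results of these data known. The fit on all hairpins, used for miR-130b and miR-301a, was given this role after the data were seen.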

Additional observations from a re-analysis of the deposited data

How the results depend on the processing

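Of 67 alternative values computed, 63 were labelled unchanged. Arm ratios had to keep the direction and the side of the threshold, and levels and shares to move by less than the SD between mice. Counts of hairpins or members had only to stay within a set factor, so that a move from 3 to 4 members passed. Leaving out 1 of 3 mice cannot move a mean by the SD of the 3. Those values of levels and shares therefore could not fail and say nothing about stability. Of the 67, 15 are fitted arm values of miR-130a and miR-301a, whose 5p strands lie at the floor, so that their direction could not change and says nothing about stability. The value of miR-130a lay between -8.77 and -8.65 without single mice. A filter at a mean of 1000 left 39 hairpins with the 5p strand higher and 28 with the 3p strand higher, against 66 and 60, because 67 hairpins instead of 129 were tested. Requiring 100 linear counts above the floor left 1 member seen in all mice in place of 3, miR-130a-3p. Without mouse 3 the count was 4, as miR-130b-5p was at the floor in that mouse alone. The arm call of miR-130b was lost without mouse 3, with a log2 ratio of -1.68 and an adjusted p of 0.0554 by limma, and the cause was not tested. The share of the family lay between 0.169% and 0.184% without single mice and between 0.175% and 0.179% under the other settings. Unknown depth limits every statement on members at the floor.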

Other observations

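Of the 14 neighbouring pairs with 1 partner at the floor, 10 lie on chromosome 12. Of the other 4, the 3 apart from Mir130b and Mir301b were named after their values were seen. Mir19a, of the growth-promoting miR-17 cluster, was at the floor beside Mir17 at 7.19 and Mir20a at 5.19 log2 units. Mir96, of a sensory and epithelial cluster, was at the floor 116 bases from Mir183 at 7.90. Of the 100 neighbouring pairs placed in all, 41 had both hairpins at the floor in every mouse.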
